A study of Homo sapiens with 6 samples.

Results

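The nuclear-encoded subunits of the mitochondrial respiratory chain and ATP synthase were examined as 89 protein-coding genes among the 58735 genes of the count table. They were taken by symbol: the NDUFA, NDUFB, NDUFC, NDUFS and NDUFV genes, SDHA to SDHD, the UQCR genes, CYC1, COX4 to COX8 and the ATP5F, ATP5M and ATP5P genes. Complex I held 39 of them, complex II 4, complex III 10, complex IV 17 and complex V, the ATP synthase, 19. The cells were Ovcar8, a cancer cell line derived from a high-grade serous carcinoma of the ovary. The serum-starved group was grown for 48 h in RPMI-1640 from which the serum had been left out, and the FBS group for 48 h in RPMI-1640 holding 5% FBS (fetal bovine serum). Each group had 3 RNA-seq libraries, all from the same line, with no other treatment or genetic change named in the labels. Separate cultures are not mentioned in the labels, so every p-value below reflects only how these libraries vary, which may be technical variation.

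The respiratory chain sits in the inner mitochondrial membrane. Complexes I and II pass electrons from NADH and succinate to coenzyme Q, complex III passes them to cytochrome c, and complex IV passes them to oxygen. Complexes I, III and IV pump protons as they do so, and complex V uses the proton gradient to make ATP. Most subunits are encoded in the nucleus and imported, while a small core is encoded by mitochondrial DNA. In many cell types the nuclear genes share promoter elements for NRF1, for ETS factors such as GABP and for YY1.

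The libraries held 17288356 to 19558484 counts in the serum-starved group and 16379416 to 17882533 in the FBS group, so that 3 counts correspond to 0.132 to 0.204 CPM (counts scaled to a common library size, with TMM factors in the values that follow). Of 12 markers of epithelial ovarian cancer, KRT7, KRT8, KRT18, PAX8 and MSLN were expressed in all 6 libraries. EPCAM was at 1.02 to 3.96 CPM, CDH1 stayed under 1 CPM, KRT19 was at or near 0 and MUC16 was at 0 in every library. The remaining markers of this list are not reported singly here, so the named ones do not describe the whole list. The summed level of the 12 markers was 8533 to 12060 CPM in serum-starved libraries and 7160 to 12086 CPM in FBS libraries, and none of the 10 tested passed. Of 11 markers of other cell types, CD3E and DCN were at 0 throughout and PTPRC, CD68 and COL3A1 at 0 or up to 0.13 CPM. The summed level of the 11 was 1827 to 1988 CPM in serum-starved libraries and 1562 to 1709 CPM in FBS libraries. Of these, 5 were tested and 4 (VWF, COL1A1, PDGFRB and ACTA2) had higher values in all 3 serum-starved libraries than in any FBS library, against 10% of all genes. The remaining tested marker had a log2 fold change of -0.09. Its level is part of the summed level and is not reported singly here. None of the 5 passed, and their part in the subunit values was not tested.

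RefSeq promoters (GRCh38.p14, 250 bases before to 50 after the gene's start) were matched for 67 of the 89 subunit genes. Each of the 67 counted with 1 promoter, while a gene in the protein-coding background could count with more than 1. The NRF1 motif, the 10 bases in capitals in the ATP5F1C promoter shown here, was searched on both strands and was in 4 of the 67 (5.97%), against 1.501% of all 22180 protein-coding promoters of the same length. With any base in its sixth position, which includes the first motif, it was in 16 (23.9%), against 7.39%. The ETS core CCGGAAG was in 19 (28.4%, against 12.8%) and the YY1 core AAGATGGC in 11 (16.4%, against 3.54%). At least 1 of these motifs was in 37 of the 67 (55.2%, against 21.2%). A match describes these letters only and is not a binding site. The promoters of SDHD and ATP5F1C are shown because they hold the NRF1 motif with no free base. Those of ATP5PO, ATP5MC1 and ATP5MC2 are shown because the values of these genes are described in detail further on. Capitals mark motif matches on either strand, and lower case the remaining bases.
SDHD promoter, chr11:112086623-112086922, plus strand: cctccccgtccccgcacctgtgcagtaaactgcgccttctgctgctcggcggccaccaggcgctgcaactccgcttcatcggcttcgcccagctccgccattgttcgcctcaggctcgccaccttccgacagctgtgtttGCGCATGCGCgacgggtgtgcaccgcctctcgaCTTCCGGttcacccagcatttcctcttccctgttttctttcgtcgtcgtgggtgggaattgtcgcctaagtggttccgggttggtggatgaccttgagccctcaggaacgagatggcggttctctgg
ATP5F1C promoter, chr10:7787927-7788226, plus strand: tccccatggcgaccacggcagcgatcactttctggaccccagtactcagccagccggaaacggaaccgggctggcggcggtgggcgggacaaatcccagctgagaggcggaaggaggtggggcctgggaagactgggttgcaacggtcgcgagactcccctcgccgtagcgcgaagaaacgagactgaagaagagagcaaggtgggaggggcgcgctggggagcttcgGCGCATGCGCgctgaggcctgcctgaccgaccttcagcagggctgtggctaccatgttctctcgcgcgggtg
ATP5PO promoter, chr21:33915755-33916054, minus strand: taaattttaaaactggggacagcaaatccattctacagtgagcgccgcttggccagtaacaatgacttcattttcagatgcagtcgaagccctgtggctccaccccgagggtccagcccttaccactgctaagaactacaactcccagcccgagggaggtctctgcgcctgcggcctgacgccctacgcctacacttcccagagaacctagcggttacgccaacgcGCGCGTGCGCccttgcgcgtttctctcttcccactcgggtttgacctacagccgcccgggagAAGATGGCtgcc
ATP5MC1 promoter, chr17:48892537-48892836, plus strand: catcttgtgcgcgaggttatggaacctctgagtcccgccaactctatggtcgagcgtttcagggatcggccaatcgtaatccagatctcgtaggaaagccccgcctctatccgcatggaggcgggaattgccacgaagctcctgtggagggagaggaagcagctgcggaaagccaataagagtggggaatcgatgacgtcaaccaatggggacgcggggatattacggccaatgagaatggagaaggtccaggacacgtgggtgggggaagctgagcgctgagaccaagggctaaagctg
ATP5MC2 promoter, chr12:53676034-53676333, minus strand: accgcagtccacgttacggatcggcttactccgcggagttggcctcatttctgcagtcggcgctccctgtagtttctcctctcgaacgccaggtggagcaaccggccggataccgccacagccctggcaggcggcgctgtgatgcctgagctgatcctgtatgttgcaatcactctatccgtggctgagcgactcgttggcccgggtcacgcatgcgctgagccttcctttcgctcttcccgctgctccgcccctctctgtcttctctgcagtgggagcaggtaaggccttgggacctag
SDHD held the NRF1 motif and the ETS core on the opposite strand. ATP5PO held the NRF1 motif with the free base, on the opposite strand, and the YY1 core. The windows of ATP5MC1 and ATP5MC2 held none of these letters.

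The comparison asked how transcript levels of the subunits respond when serum is withheld for 48 h, which the series title ties to quiescence. Most subunit genes had slightly lower values in serum-starved libraries, and none passed the test. UQCRB, a small subunit of complex III, had the lowest value (0.390-fold). ATP5MF, ATP5MC3 and ATP5MC1 of the ATP synthase were at 0.520-fold, 0.572-fold and 0.614-fold. ATP5PO, in the stalk of the ATP synthase, was at 1.64-fold, and 1 library, serum-starved replicate 3, held the lowest value of most subunit genes.

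Of the 89 genes, 79 had enough counts to be tested: 36 of complex I, all 4 of complex II, all 10 of complex III, 12 of complex IV and 17 of complex V. In the quasi-likelihood test of edgeR, adjusted by Benjamini-Hochberg over all 13772 genes tested, 0 of the 79 had an adjusted p under 0.05, while 39 of all genes tested did (0.283%; 0.0436% lower and 0.24% higher). At an unadjusted p under 0.05, 3 subunit genes were lower (UQCRB, ATP5MC3 and ATP5MF; 4.37% of all genes) and 1 was higher (ATP5PO; 6.01% of all genes). DESeq2 called 1 of the 79, UQCRB, against 0.324% of all genes called lower, and limma-voom called 0. The log2 fold change was below 0 in 62 of the 79 (78.5%), against 51.5% of all genes. Its median over the 79 was -0.25, against -0.02 over all genes. In RNA from bulk cultures, fewer cells of a kind and less RNA per cell cannot be told apart. The biological coefficient of variation was 36.3%, so a subunit gene that did not pass may still differ.

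**Figure D1:**
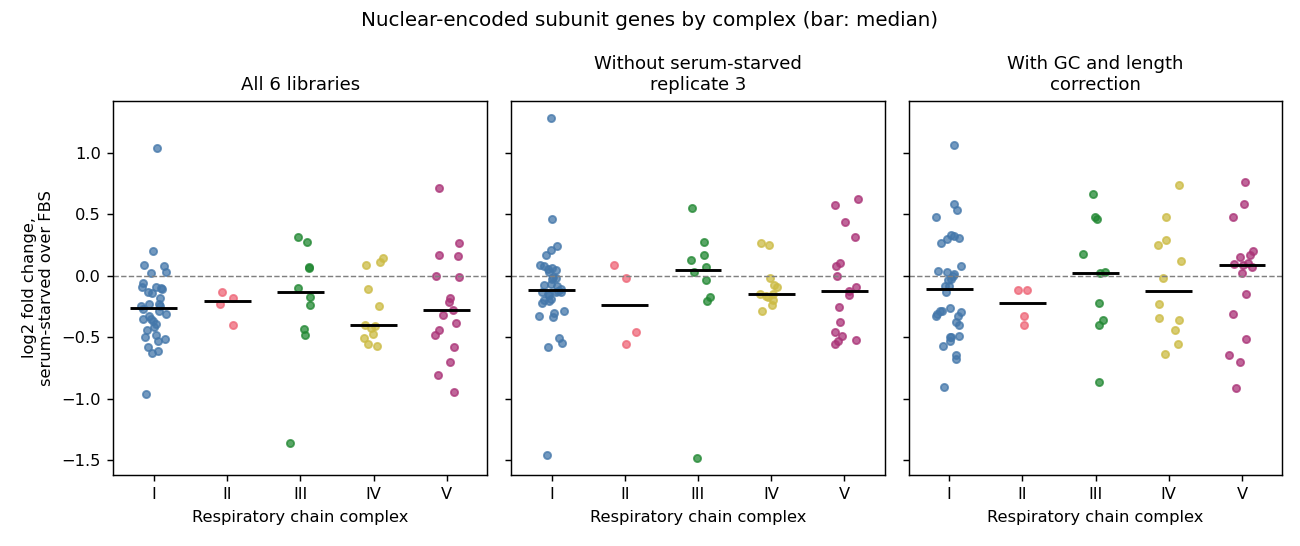
Log2 fold change (vertical axis, serum-starved over FBS) of the tested subunit genes by complex (horizontal axis), 1 point a gene, with a bar at the median. Each panel is one fit, as titled: with all 6 libraries the medians run from -0.40 in complex IV to -0.14 in complex III, and they lie nearer to 0 in complexes I, III, IV and V without serum-starved replicate 3 or with the correction for GC content and length.

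The groups did not overlap in 12 of the 79 genes (15.2%), against 17.7% of all genes. In 11 (13.9%, against 7.65% of all genes) every serum-starved library was lower than every FBS library: NDUFA3, NDUFB2, NDUFB3, NDUFB4, SDHB, UQCRB, UQCRQ, COX5A, ATP5MC1, ATP5MC3 and ATP5MF. In 1 (1.27%, against 10% of all genes), ATP5PO, every serum-starved library was higher.

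Summed over the 89 genes, subunit transcripts took 1.29%, 1.30% and 1.05% of all counts in serum-starved replicates 1, 2 and 3, against 1.47%, 1.47% and 1.53% in FBS replicates 1, 2 and 3. The groups did not overlap in these shares, but in CPM the sums overlapped. They were 15160, 12945 and 9035 CPM in serum-starved libraries, against 13356, 15122 and 16267 CPM in FBS libraries. Serum-starved replicate 3 lay lowest on both scales. This library held the lowest value in 55 of the 79 genes (69.6%), against 27.4% of all genes. The median log2 deviation of the 79 genes from their mean over the 6 libraries was 0.15, 0.02 and -0.54 in serum-starved replicates 1, 2 and 3, and 0.17, 0.10 and 0.18 in FBS replicates 1, 2 and 3. Without serum-starved replicate 3, the median log2 fold change of the tested subunit genes was -0.11, against -0.01 over all genes. With that library left out, 53 of the 79 values were below 0 (67.1%, against 50.6% of all genes), and UQCRB passed the test alone (0.938% of all genes were called lower).

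GC content and transcript length moved with the deviation of serum-starved replicate 3. Across the 79 genes, which are not independent replicates, its difference from the mean of serum-starved replicates 1 and 2 was set against both properties. The Spearman rho was -0.67 with transcript GC content, against -0.59 over all 13768 genes with a known GC content. With length it was 0.27, against 0.37 over those genes. The log2 fold change itself had a rho with GC content of -0.11 across the 79 genes and 0.29 over all 13768. After serum-starved replicate 3 was left out, these were 0.27 and 0.55, so leaving it out did not remove the trend with GC content. From the mean of the 6 libraries, the median deviation of serum-starved replicate 3 was -0.99 in the 26 subunit genes of highest GC content. In the 27 of lowest GC content it was -0.26. With a correction for GC content and length fitted in each library, the median log2 fold change of the subunit genes was -0.08, against 0.01 over all genes. With it, 44 of the 79 values were below 0 (55.7%, against 49% of all genes) and 0 passed (0.835% of all genes did), with 11 lower (7.49% of all genes) and 3 higher (8.48%) at an unadjusted p under 0.05. With both the correction and that library left out, the median was 0.01. The part of these properties in the subunit values was not tested further.

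**Figure D2:**
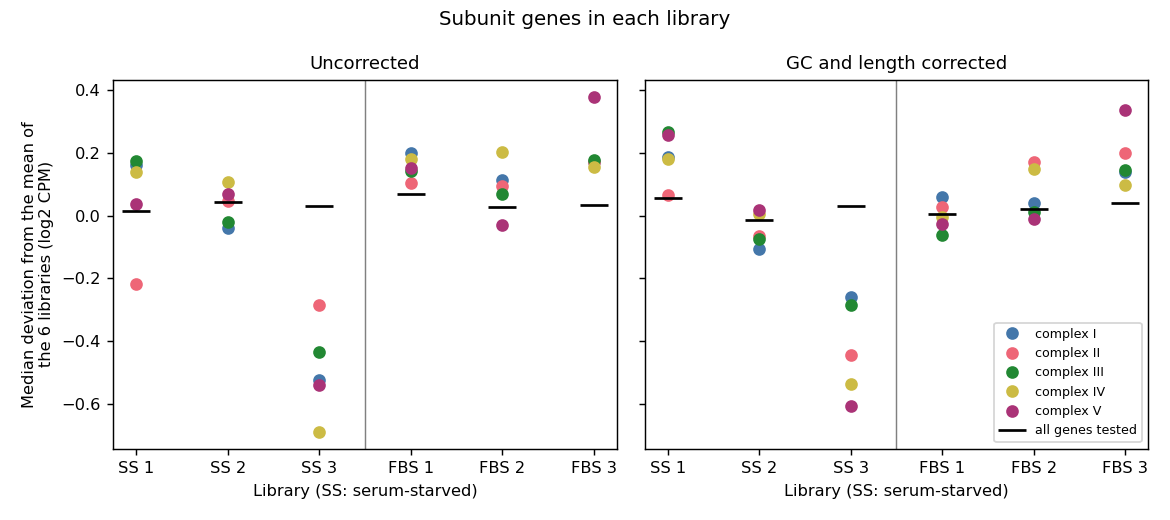
Median log2 CPM deviation of the tested subunit genes of each complex from the mean of the 6 libraries (vertical axis), by library (horizontal axis, serum-starved on the left), without and with the correction for GC content and length. Over all 79 genes, serum-starved replicate 3 lies at -0.54 without the correction and at -0.39 with it, below the other 5 libraries in both.

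Complex I, the NADH dehydrogenase, had a median log2 fold change of -0.26, with 30 of its 36 tested genes below 0. The 39 genes together had 1927, 1536 and 946 FPKM (counts per kilobase of transcript, scaled for library size) in serum-starved replicates 1, 2 and 3, against 1695, 1891 and 1817 FPKM in FBS replicates 1, 2 and 3. The groups overlapped, because serum-starved replicate 1 was the highest library and replicate 3 the lowest. The ratio of the group means was 0.816, and 0.961 without serum-starved replicate 3. The 6 tested core subunits, among them those that carry the flavin and the iron-sulfur clusters, had a median of -0.24. The 30 tested accessory subunits had a median of -0.28.

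Among the core subunits, NDUFS1, which binds iron-sulfur clusters, had 20.7, 30.5 and 41.5 CPM in serum-starved libraries, against 38.2, 33.5 and 37.2 CPM in FBS libraries. NDUFV1, which binds the flavin that accepts electrons from NADH, had 492, 336 and 194 CPM in serum-starved libraries, against 315, 426 and 363 CPM in FBS libraries. The groups overlapped in both genes, and their log2 fold changes of -0.23 and -0.11 each took the other sign when a single library was left out. NDUFS7, a core subunit of the arm that reaches the membrane, had 55.8, 44.2 and 23.4 CPM in serum-starved libraries, against 50.7, 66.8 and 71.6 CPM in FBS libraries. Its log2 fold change was -0.62 (SE 0.33, edgeR adjusted p = 0.535), and -0.91 (adjusted p = 0.0614) with the correction for GC content and length. In NDUFS7, 49.1% of the exon bases lie in the exons of other genes, and it was named after its values were seen.

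Among the accessory subunits, NDUFB7 had the highest level per length of complex I, at 247 ± 126 FPKM in serum-starved libraries and 383 ± 56.8 FPKM in FBS libraries (SD, n = 3 each). It had 197, 145 and 61.8 CPM in serum-starved libraries, against 181, 238 and 206 CPM in FBS libraries. The groups overlapped through serum-starved replicate 1, and the log2 fold change was -0.63 (SE 0.36, edgeR adjusted p = 0.565). NDUFA5 had the lowest log2 fold change of the complex, -0.96 (SE 0.66, adjusted p = 0.656), at low levels of 0.272, 2.31 and 2.91 CPM in serum-starved libraries and 5.84, 3.16 and 1.82 CPM in FBS libraries. NDUFA3, NDUFB2, NDUFB3 and NDUFB4, the 4 genes of complex I whose groups did not overlap, had log2 fold changes of -0.58, -0.50, -0.52 and -0.48. Their adjusted p-values in edgeR ranged from 0.589 to 0.692. With the correction for GC content and length they were -0.68, -0.50, -0.0064 and 0.01 in the same order. NDUFA4 was first assigned to complex I and is found with complex IV. By their symbols, it and its paralogue NDUFA4L2 are counted here with complex I. NDUFA4 had a log2 fold change of -0.27, and of 0.26 with the correction for GC content and length.

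NDUFA4L2, a paralogue of NDUFA4 known as a hypoxia-responsive gene, had the highest log2 fold change of all 79 genes, 1.04 (SE 0.94, edgeR adjusted p = 0.756). It rests on 12, 21 and 12 counts in serum-starved libraries, against 2, 10 and 8 counts in FBS libraries, so that the groups did not overlap in counts but did in CPM. In the summed FPKM of the pair its share was 0.77%, 0.67% and 0.53% in serum-starved libraries, against 0.08%, 0.41% and 0.27% in FBS libraries. NDUFA4 thus made up 99.2% to 99.9% of the pair in every library.

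Of complex I, 3 genes were not tested. NDUFV2, a core subunit with an iron-sulfur cluster, had 0, 8 and 0 counts in serum-starved libraries and 9, 18 and 1 counts in FBS libraries. The 0 counts in serum-starved replicates 1 and 3 allow up to 0.204 and 0.132 CPM, and cover counting error only. Of its exon bases, 28.4% lie in the read-through gene AP005263.1, which had 0 counts in all 6 libraries. NDUFA7, an accessory subunit, had 0, 2 and 0 counts in serum-starved libraries and 16, 7 and 3 counts in FBS libraries. Of its exon bases, 33.5% are shared, with AC010323.1 (0 counts in all 6 libraries) and with RPS28, which had 8250 to 17415 counts in serum-starved libraries and 15604 to 17491 counts in FBS libraries. The sources used here do not say how reads over shared exons were counted, so the levels of NDUFV2 and NDUFA7 are uncertain. The read-through gene NDUFC2-KCTD14 had no counts in any library.

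Complex II, the succinate dehydrogenase, is also an enzyme of the citric acid cycle and is encoded wholly in the nucleus. Its 4 genes together had 82.4, 91.5 and 81.9 FPKM in serum-starved replicates 1, 2 and 3, against 102, 102 and 106 FPKM in FBS replicates 1, 2 and 3. The groups did not overlap, the ratio of the means was 0.824, and it was 0.841 without serum-starved replicate 3. In summed CPM the groups overlapped, at 503, 542 and 396 CPM in serum-starved libraries, against 524, 553 and 592 CPM in FBS libraries. On that scale the ratio was 0.864, and 0.940 without serum-starved replicate 3. All 4 genes had log2 fold changes below 0, with a median of -0.21, and -0.22 with the correction for GC content and length. SDHB, the iron-sulfur subunit, had 86.8, 97.4 and 102 CPM in serum-starved libraries, against 132, 123 and 123 CPM in FBS libraries. In this gene serum-starved replicate 3 was the highest of its group, and the groups did not overlap. Its log2 fold change was -0.40 (SE 0.27, edgeR adjusted p = 0.644), -0.46 without serum-starved replicate 3 and -0.12 with the correction. SDHA, the flavoprotein that oxidises succinate, had 280, 258 and 153 CPM in serum-starved libraries, against 227, 265 and 267 CPM in FBS libraries. SDHA overlapped, and its log2 fold change of -0.14 was 0.09 without serum-starved replicate 3. SDHC and SDHD, the membrane anchors, had log2 fold changes of -0.18 and -0.23. SDHD, whose promoter holds the NRF1 motif shown above, had 20.9, 37.4 and 51.2 CPM in serum-starved libraries, against 47.5, 38.1 and 43.0 CPM in FBS libraries, and the groups overlapped.

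Complex III, the cytochrome bc1 complex, had 1644, 1126 and 847 FPKM over its 10 genes in serum-starved replicates 1, 2 and 3, against 1186, 1486 and 1511 FPKM in FBS replicates 1, 2 and 3. The groups overlapped, with serum-starved replicate 1 highest of all, and the ratio of the means was 0.865 (0.993 without serum-starved replicate 3). The median log2 fold change was -0.14, with 6 of 10 genes below 0. It was 0.05 without serum-starved replicate 3 and 0.02 with the correction for GC content and length, with 4 of 10 genes below 0 in each.

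UQCRB (ENSG00000156467, GRCh38 chromosome 8, 96225920 to 96235634, minus strand) encodes a small subunit at the coenzyme Q side of complex III. It had 20.2, 32.1 and 33.0 CPM in serum-starved libraries, against 101, 63.2 and 54.2 CPM in FBS libraries. The groups did not overlap, and the means were 28.4 ± 7.13 CPM in serum-starved libraries and 72.9 ± 25.0 CPM in FBS libraries (SD, n = 3 each). The log2 fold change was -1.36 (SE 0.32), with an adjusted p of 0.104 and an unadjusted p of 0.000537 in edgeR. It passed in 3 of 21 settings: DESeq2 (adjusted p = 0.00945), no low-count filter (adjusted p = 0.0106) and edgeR without serum-starved replicate 3 (adjusted p = 0.0112). The adjusted p over all settings ranged from 0.00945 to 0.923, the highest without FBS replicate 1, where the log2 fold change was -1.05. With the correction for GC content and length the log2 fold change was -0.87 (adjusted p = 0.0775). With both the correction and serum-starved replicate 3 left out, it was -0.69 (edgeR adjusted p = 0.129) and did not pass.

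CYC1, the cytochrome c1 subunit that hands electrons to cytochrome c, had the highest level per length of complex III, at 435 ± 193 FPKM in serum-starved libraries and 588 ± 126 FPKM in FBS libraries (SD, n = 3 each). It had 1298, 810 and 535 CPM in serum-starved libraries, against 910, 1345 and 1311 CPM in FBS libraries. The groups overlapped, and the log2 fold change was -0.43 (SE 0.36, edgeR adjusted p = 0.731). UQCRFS1, the Rieske iron-sulfur protein, had 147, 131 and 119 CPM in serum-starved libraries, against 137, 143 and 146 CPM in FBS libraries. The groups overlapped here too, and its log2 fold change was -0.10, and 0.17 with the correction for GC content and length. UQCRC1 and UQCRC2, the large core proteins, had log2 fold changes of 0.06 and 0.27. UQCRQ, a small subunit, had 204, 203 and 96.8 CPM in serum-starved libraries, against 217, 235 and 252 CPM in FBS libraries, with no overlap. UQCRHL, a near-identical copy of the hinge protein gene UQCRH, had the highest log2 fold change of the complex, 0.31 (SE 0.41, adjusted p = 0.845), and reads of both copies may be split between them.

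**Figure D3:**
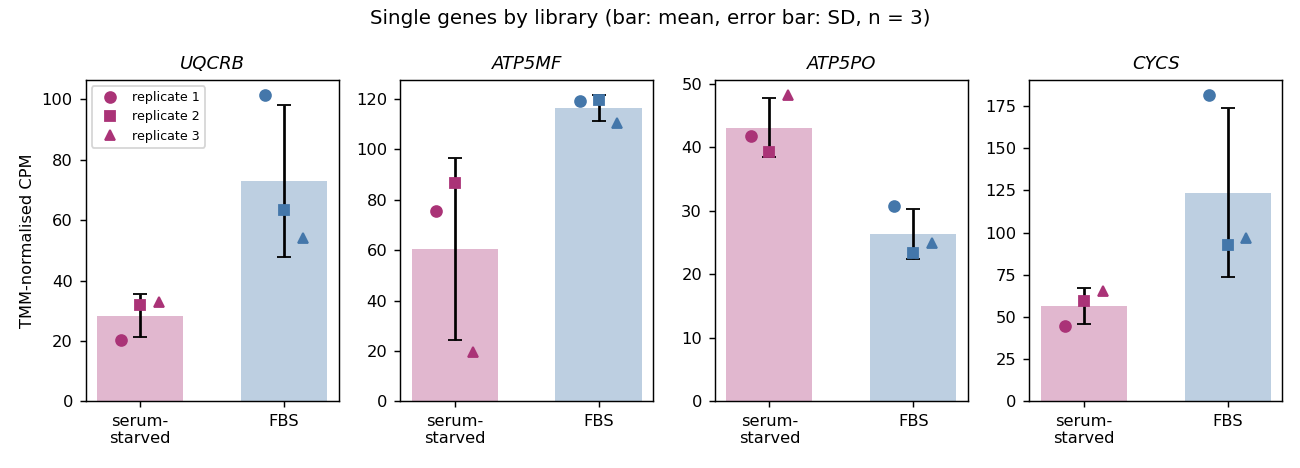
CPM normalised by TMM (vertical axis, from 0) of single subunit genes in the serum-starved libraries and, to their right, the FBS libraries, 1 point a library, with the mean as a bar and the SD as an error bar (n = 3). UQCRB lies at 20.2 to 33.0 CPM in serum-starved libraries and at 54.2 to 101 CPM in FBS libraries.

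Complex IV, cytochrome c oxidase, had the lowest median log2 fold change of the 5 complexes, -0.40, with 9 of its 12 tested genes below 0. Its 17 genes together had 1302, 1296 and 577 FPKM in serum-starved replicates 1, 2 and 3, against 1423, 1477 and 1347 FPKM in FBS replicates 1, 2 and 3. The groups did not overlap, but serum-starved replicates 1 and 2 lay close to the FBS libraries and replicate 3 far below. The ratio of the means was 0.748, and 0.917 without serum-starved replicate 3. Without that library the median was -0.15, with the correction for GC content and length it was -0.13, and with both it was 0.03.

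COX4I1, the subunit at which ATP acts on the enzyme, had 590, 577 and 222 CPM in serum-starved libraries, against 568, 641 and 726 CPM in FBS libraries. COX5A had 139, 132 and 73.8 CPM in serum-starved libraries, against 150, 156 and 150 CPM in FBS libraries. The groups overlapped in COX4I1 and not in COX5A, and serum-starved replicate 3 was lowest in both. Their log2 fold changes were -0.48 (SE 0.36, edgeR adjusted p = 0.702) and -0.41 (SE 0.30, adjusted p = 0.696). COX6A1 had the lowest log2 fold change of complex IV, -0.57 (SE 0.41, adjusted p = 0.681), with 84.7, 116 and 23.6 CPM in serum-starved libraries, against 125, 110 and 97.8 CPM in FBS libraries. Without serum-starved replicate 3 it was -0.15. COX8A had the highest level per length, 321 ± 156 FPKM in serum-starved libraries and 471 ± 68.5 FPKM in FBS libraries (SD, n = 3 each), and a log2 fold change of -0.56 (SE 0.36, adjusted p = 0.631). COX7C had the highest log2 fold change, 0.14 (SE 0.28, adjusted p = 0.909), with 179, 202 and 142 CPM in serum-starved libraries, against 149, 153 and 172 CPM in FBS libraries.

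Several subunits of complex IV exist as paralogues that are used in different tissues, and 1 form of each made up most of the transcripts here. COX4I1 took at least 99.8% of the summed FPKM of its pair with COX4I2, a form known from lung and hypoxia, in every library. COX6A1 took 98.5% to 100% against the heart and muscle form COX6A2, and COX6B1 at least 99.9% against the testis form COX6B2. COX7B took all of the counts of its pair with COX7B2, and COX8A all of those of its pair with COX8C. In the COX7A family, COX7A2 took 77.5% to 84.4%, COX7A2L, which takes part in joining complexes III and IV, 13.2% to 18.8%, and the muscle form COX7A1 2.44% to 4.17%. The groups overlapped in all 6 of these families. COX4I2, COX6A2, COX6B2, COX7B2 and COX8C had 0 to 15 counts in any library and were not tested.

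Complex V, the ATP synthase, consists of the F1 head, which makes ATP, a rotating c ring in the membrane and a peripheral stalk that holds the head in place. Its 19 genes together had 1791, 1653 and 1235 FPKM in serum-starved replicates 1, 2 and 3, against 1641, 1895 and 2249 FPKM in FBS replicates 1, 2 and 3. The groups overlapped, with a ratio of the means of 0.809 (0.893 without serum-starved replicate 3). The median log2 fold change of the 17 tested genes was -0.28, and 0.09 with the correction for GC content and length. By role, the medians were -0.38 for the 5 genes of the F1 head and central stalk, -0.70 for the 3 genes of the c ring, -0.19 for 5 small membrane subunits and 0.13 for the 4 genes of the peripheral stalk. With the correction they were 0.02, -0.65, 0.15 and 0.38 in the same order. ATP5MGL and the read-through gene ATP5MF-PTCD1 had at most 3 counts in a library and were not tested.

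ATP5F1B, the catalytic beta subunit, had the highest level per length of all 89 genes, 827 ± 137 FPKM in serum-starved libraries and 1004 ± 243 FPKM in FBS libraries (SD, n = 3 each). It had 2267, 2011 and 1631 CPM in serum-starved libraries, against 1816, 2407 and 2936 CPM in FBS libraries, with overlap. Its log2 fold change was -0.28 (SE 0.33, edgeR adjusted p = 0.827), and that of ATP5F1A, the alpha subunit, was 0.16 (SE 0.29, adjusted p = 0.896). ATP5F1C, the gamma subunit in the central stalk, whose promoter holds the NRF1 motif, had 209.5, 235 and 293 CPM in serum-starved libraries, against 329.6, 253 and 379.9 CPM in FBS libraries. The groups overlapped, and the log2 fold change was -0.38 (SE 0.30, adjusted p = 0.715), and 0.10 with the correction for GC content and length.

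ATP5PO (ENSG00000241837, GRCh38 chromosome 21, 33903453 to 33915980, minus strand) encodes the peripheral stalk protein also called OSCP, which joins the stalk to the F1 head. It had 41.9, 39.3 and 48.3 CPM in serum-starved libraries, against 30.8, 23.4 and 24.9 CPM in FBS libraries. It was the 1 tested subunit gene in which every serum-starved library was higher than every FBS library. The means were 43.1 ± 4.61 CPM in serum-starved libraries and 26.3 ± 3.93 CPM in FBS libraries (SD, n = 3 each). The log2 fold change was 0.71 (SE 0.29, edgeR adjusted p = 0.397), 0.62 without serum-starved replicate 3 and 0.76 (adjusted p = 0.106) with the correction for GC content and length. Of its exon bases, 25.4% lie in the exons of other genes. The other genes of the peripheral stalk, ATP5PB, ATP5PD and ATP5PF, had log2 fold changes of -0.01, 0.27 and -0.32, and 0.17, 0.58 and 0.09 with the correction, and their groups overlapped.

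ATP5MF (ENSG00000241468, GRCh38 chromosome 7, 99448475 to 99466331, minus strand), the small membrane subunit f, had the lowest log2 fold change of complex V. It had 75.6, 86.7 and 19.4 CPM in serum-starved libraries, against 119, 119.5 and 110.4 CPM in FBS libraries, without overlap. The means were 60.6 ± 36.1 CPM in serum-starved libraries and 116 ± 5.18 CPM in FBS libraries (SD, n = 3 each). The log2 fold change was -0.94 (SE 0.40, edgeR adjusted p = 0.421), and -0.52 without serum-starved replicate 3, which held the lowest value by far.

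The c ring is built from copies of subunit c, which ATP5MC1, ATP5MC2 and ATP5MC3 encode with the same mature protein and different import sequences. ATP5MC1 had 174, 179 and 68.6 CPM in serum-starved libraries, against 179.8, 247 and 259 CPM in FBS libraries. ATP5MC3 had 235, 257 and 127 CPM in serum-starved libraries, against 310.2, 359 and 413 CPM in FBS libraries. In both genes every serum-starved library was below every FBS library, and replicate 3 was lowest. Their log2 fold changes were -0.70 (SE 0.35, edgeR adjusted p = 0.506) and -0.81 (SE 0.32, adjusted p = 0.397), and -0.38 and -0.55 without serum-starved replicate 3. ATP5MC2 had 523, 504 and 213 CPM in serum-starved libraries, against 414, 467 and 554 CPM in FBS libraries. Its groups overlapped, and its log2 fold change was -0.21 (SE 0.35, adjusted p = 0.885), and 0.10 without serum-starved replicate 3.

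ATP5MC2 made up 56.4%, 54.3% and 54.3% of the summed FPKM of the 3 genes in serum-starved replicates 1, 2 and 3, against 47.5%, 44.2% and 46.5% in FBS replicates 1, 2 and 3. The means were 55.0% ± 1.23 in serum-starved libraries and 46.1% ± 1.67 in FBS libraries (SD, n = 3 each). In this share, which sets genes of the same library against each other, serum-starved replicate 3 lay with the rest of its group. An exact two-sided permutation test gave p = 0.1, also after adjustment over the 3 shares, which is the smallest p that 3 against 3 libraries allow. Groups without overlap always give this p, so the test adds nothing to the lack of overlap. The 3 shares depend on each other, and the adjustment does not cover the other families. ATP5MC1 took 28.7%, 29.4% and 26.7% in serum-starved libraries, against 31.5%, 35.8% and 33.1% in FBS libraries. ATP5MC3 took 14.9%, 16.3% and 19.0% in serum-starved libraries, against 21.0%, 19.998% and 20.4% in FBS libraries. Neither share overlapped between the groups. With the correction for GC content and length, the log2 ratio of ATP5MC2 to ATP5MC1 was 1.57, 1.4999 and 1.45 in serum-starved libraries, against 1.31, 0.97 and 1.12 in FBS libraries, still without overlap (exact permutation p = 0.1, adjusted 0.3 over 3 ratios). The corrected log2 ratio of ATP5MC2 to ATP5MC3 was 0.61, 0.81 and 1.24 in serum-starved libraries, against 0.77, 0.28 and 0.39 in FBS libraries, with overlap (exact permutation p = 0.2, adjusted 0.3). The corrected log2 ratio of ATP5MC3 to ATP5MC1 averaged 0.62 ± 0.38 in serum-starved libraries and 0.66 ± 0.10 in FBS libraries (SD, n = 3 each), with overlap (exact permutation p = 0.8, adjusted 0.8). Of the 8 families of paralogues described, 2 showed shares without overlap, the c ring genes and the pair of NDUFA4 and NDUFA4L2. No such share was computed over all genes, while 17.7% of all single genes tested did not overlap. COX4I1, COX6B1, COX7B and COX8A each took at least 99.8% of their pair in every library, so these shares had little room to separate. These families were read with earlier results of these data known.

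**Figure D4:**
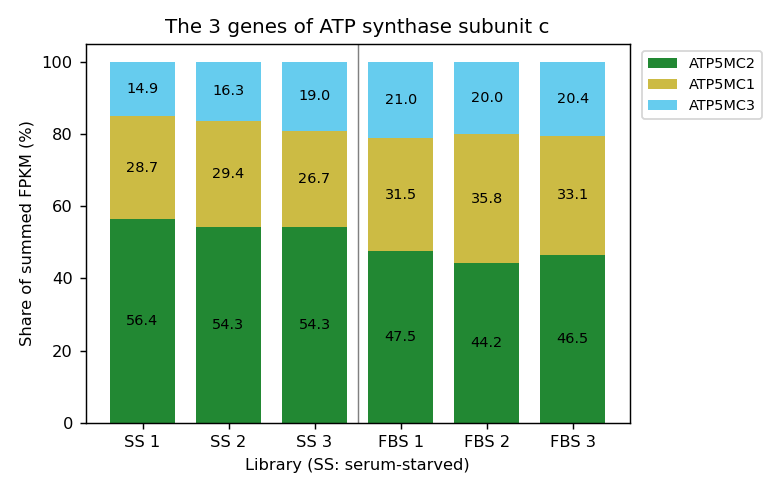
Share of the 3 genes of ATP synthase subunit c in their summed FPKM (vertical axis, percent), by library (horizontal axis, serum-starved on the left). ATP5MC2 lies at 54.3% to 56.4% in serum-starved libraries and at 44.2% to 47.5% in FBS libraries.

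The 13 subunits encoded by mitochondrial DNA, from a fixed list outside the rule, stood on the other side of 0. All 13, which are not independent replicates, had log2 fold changes above 0, while 51.5% of all genes were below 0. Their median was 0.82, and it was 0.90 without serum-starved replicate 3 and 1.32 with the correction for GC content and length. In edgeR 0 of the 13 passed, 8 were higher at an unadjusted p under 0.05 (6.01% of all genes), and 3 were higher without overlap of the groups (10% of all genes). MT-ND6, a complex I subunit from the other strand of mitochondrial DNA than the rest, had 626, 249.8 and 664 CPM in serum-starved libraries, against 149, 148 and 179 CPM in FBS libraries. Its groups did not overlap, with a log2 fold change of 1.69 (edgeR adjusted p = 0.0591). MT-ND5 had 1616, 782 and 2294 CPM in serum-starved libraries, against 353, 495 and 714 CPM in FBS libraries, also without overlap (log2 fold change 1.59, adjusted p = 0.146). Both passed with the correction (adjusted p = 0.00566 and 0.0322) and without serum-starved replicate 3 (adjusted p = 0.0112 and 0.0458), where 0.632% and 0.875% of all genes were called higher. With both together neither passed (adjusted p = 0.129 and 0.25), at log2 fold changes of 2.14 and 1.72. They were named after their values were seen, and because strand use in counting is not given, reads of MT-ND5 and MT-ND6, which lie end to end on opposite strands, may not be fully separated.

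The 13 mitochondrial transcripts took 4.42%, 2.34% and 3.77% of all counts in serum-starved replicates 1, 2 and 3, against 1.57%, 1.66% and 2.505% in FBS replicates 1, 2 and 3. These shares overlapped, since serum-starved replicate 2 lay below FBS replicate 3. Set against the nuclear subunits of the same library, the ratio of mitochondrial to nuclear counts was 3.43, 1.80 and 3.595 in serum-starved libraries, against 1.06, 1.13 and 1.64 in FBS libraries. The ratios did not overlap, and the lowest serum-starved value lay close to the highest FBS value. By complex, the ratios did not overlap in complexes I, III and V and overlapped in complex IV, where they were 13.6, 6.04 and 16.6 in serum-starved libraries and 3.52, 3.85 and 6.19 in FBS libraries. The share of mitochondrial transcripts also depends on how RNA was selected for the libraries, and its part in these ratios was not tested.

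**Figure D5:**
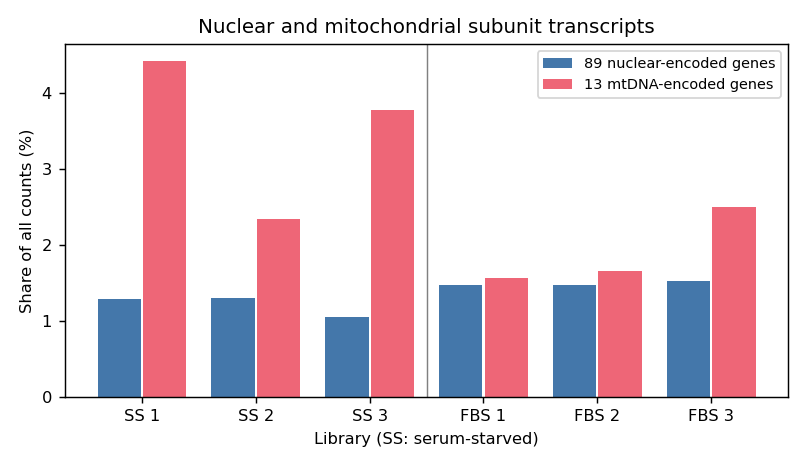
Share of all counts (vertical axis, percent) taken by the nuclear subunit genes and by the 13 subunit genes of mitochondrial DNA, by library (horizontal axis, serum-starved on the left). The nuclear share lies at 1.05% to 1.30% in serum-starved libraries and at 1.47% to 1.53% in FBS libraries, and the mitochondrial share at 2.34% to 4.42% in serum-starved libraries and at 1.57% to 2.505% in FBS libraries.

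Genes that act with the subunits were read from fixed lists. Of 60 assembly factors, which build the complexes without staying in them, 58 were tested, 0 passed and 49 had log2 fold changes below 0 (84.5%, against 51.5% of all genes). Their median was -0.29, of -0.22 without serum-starved replicate 3 and of -0.26 with the correction for GC content and length. At an unadjusted p under 0.05, 9 were lower (4.37% of all genes) and 0 higher (6.01%), and the groups did not overlap in 12 lower (7.65%) and 1 higher (10%). All 6 assembly factors of complex III were below 0, with a median of -0.55. UQCC3, which acts in the assembly of cytochrome b, had 23.0, 20.8 and 3.35 CPM in serum-starved libraries, against 34.1, 49.3 and 30.7 CPM in FBS libraries, with no overlap (log2 fold change -1.28, edgeR adjusted p = 0.359). It passed with no low-count filter (adjusted p = 0.0430). UQCC2, which works with it, had 112, 101 and 41.8 CPM in serum-starved libraries, against 134, 162 and 142 CPM in FBS libraries, also with no overlap (log2 fold change -0.79, adjusted p = 0.429). Without serum-starved replicate 3, which was lowest in both, UQCC3 was at -0.80 and UQCC2 at -0.46. Of 3 subunits and partners whose symbols the rule does not take, NDUFAB1, ATP5IF1 and ATP5S, 0 passed and the median was -0.55.

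CYCS, cytochrome c, which carries electrons between complexes III and IV, had 44.8, 59.3 and 65.4 CPM in serum-starved libraries, against 181, 92.6 and 96.9 CPM in FBS libraries. The groups did not overlap, and FBS replicate 1 stood highest. Its log2 fold change was -1.13 (edgeR adjusted p = 0.222), and -1.25 (adjusted p = 0.0312) without serum-starved replicate 3, where 0.938% of all genes were called lower. CYCS passed in that setting only, 1 of 21. Over all settings its log2 fold change ran from -1.29 to -0.75 and the adjusted p from 0.0312 to 0.997. Of the 12 genes of mobile carriers and coenzyme Q synthesis, 0 passed, 2 were lower at an unadjusted p under 0.05 (4.37% of all genes), and the median was -0.23.

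Of 15 regulators of mitochondrial gene expression, 13 were tested, 0 passed, 1 was lower at an unadjusted p under 0.05 (4.37% of all genes), and the median was -0.14. PPARGC1A, a coactivator of mitochondrial biogenesis, was at 0, 0.11 and 0.44 CPM in serum-starved libraries and at 0, 0 and 0.32 CPM in FBS libraries, and was not tested. NRF1, the factor whose motif was searched above, had 29.1, 29.8 and 26.8 CPM in serum-starved libraries, against 25.6, 41.0 and 23.7 CPM in FBS libraries. Its values overlapped, with a log2 fold change of -0.07 (edgeR adjusted p = 0.957). TFAM, which packs and transcribes mitochondrial DNA, had 6.32, 14.8 and 19.6 CPM in serum-starved libraries, against 37.5, 22.5 and 15.99 CPM in FBS libraries. It overlapped as well, with a log2 fold change of -0.90 (adjusted p = 0.460).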

How the data were processed

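The deposited raw counts per gene were the measurement, in 6 libraries grouped by the labelled treatment. Per the labels' protocols, Trizol total RNA was made into NEBNext libraries and sequenced on a NovaSeq. Per the submitters' processing notes, GRCh38, STAR 2.6.1 and DESeq2 were used. No source used here names the counting tool or its strand setting. The authors also deposited FPKM values, which equalled counts divided by length and by size-factor-scaled totals in all genes above 20 counts. All 58735 gene IDs matched GENCODE 29, which supplied GC content and exon overlaps.

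Genes were kept by filterByExpr (minimum count 10, minimum total 15), scaled by TMM and tested with edgeR 4.0.16 (robust quasi-likelihood, Benjamini-Hochberg, threshold 0.05) in R 4.3.3. DESeq2 1.42.0 and limma 3.58.1 were alternatives. The GC and length correction used splines with 5 degrees of freedom as offsets. The tests were checked on simulated data. These held no trend with GC content or length and no outlying library, so the check does not cover such features. Intervals and floors cover counting error only.

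The subunit genes and lists were chosen with earlier results of these data known. The naming rule took, for each complex, the highest and lowest fold change and the highest FPKM, the paralogue families, the catalytic or signature subunits (1 of them is not reported here), and PPARGC1A, NRF1, TFAM and CYCS. Other genes were named after their values were seen. Of the subunit genes, 45 have at least 1 named processed pseudogene, and 29 tested genes share over 10% of their exon bases, so their counts are less certain.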

Additional observations from a re-analysis of the deposited data

How the results depend on the processing

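The 0 subunit genes called became 1, UQCRB, with no low-count filter, in DESeq2 and without serum-starved replicate 3 (0 to 1 over the libraries left out). The 39 genes called among all tested became 25 with library totals, 127 with no filter, 160 in DESeq2, 115 with the GC and length correction, 93 with it and without serum-starved replicate 3 (added after seeing the data), and 22, 6 and 2 in limma on log2(FPKM + 1), log2(FPKM + 0.1) and log2(FPKM + 1) with no filter, and 4 to 257 when single libraries were left out. The count was 257 without serum-starved replicate 3 and 4 without FBS replicate 1. The median log2 fold change of complex V was 0.088 with the correction and 0.10 also without serum-starved replicate 3, where that of complex IV was 0.029. That of complex III ran from -0.27 to 0.050 over the libraries left out and was 0.023 with the correction and 0.069 with it and without serum-starved replicate 3. With the correction, 35 of the 79 subunit genes were above 0, against 17 without it. Of the genes the naming rule took, it gave values above 0 in place of below 0 to COX7A2 (0.25), COX7A2L (0.12), NDUFA4 (0.26) and UQCRFS1 (0.17), and of other genes named in the text to ATP5F1C (0.099), ATP5PF (0.088), ATP5PB (0.17) and NDUFB4 (0.014). Of the genes the rule took, it did so without serum-starved replicate 3 to COX7A2 (0.47), COX7A2L (0.37), NDUFA4 (0.54), UQCRFS1 (0.36) and COX6A1 (0.024). The log2 fold change took both signs when single libraries were left out in UQCRHL (-0.16 to 0.55), COX7A1 (-0.22 to 0.26), NDUFS1 (-0.51 to 0.0064), SDHA (-0.29 to 0.085), COX7B (-0.29 to 0.29), ATP5MC2 (-0.41 to 0.10), NDUFV1 (-0.46 to 0.17), NRF1 (-0.21 to 0.23) and COX7A2L (-0.23 to 0.019). The causes were not tested. The main fit did not treat the samples as paired. Same-numbered libraries deviated together at -0.26, 0.10 and -0.08, which with so few libraries cannot show whether replicate numbers pair the samples. With the replicate number as a block, 43 genes and 0 subunit genes passed. With block and correction together 145 genes passed, the median of complex V was 0.030, and COX7A2 (0.18), COX7A2L (0.049), NDUFA4 (0.29) and UQCRFS1 (0.13) were above 0. Of the recomputed values, 606 of single genes and 175 of summaries kept their direction and side of the threshold or stayed within the spread. Of single genes, 24 changed sign and 4 came to pass the test, and 22 summaries moved. With 3 libraries a group, small changes could not be called at this spread.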
